A study of Homo sapiens and Mus musculus with 18 samples.

Results

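Insulin-like growth factor (IGF) binding proteins and the IGF and insulin receptors were described in 2 human pancreatic cancer cell lines. The lines were sequenced with and without keratin 17 (K17), a filament-forming protein of stratified epithelia encoded by KRT17. The 9 genes were chosen by name, with their CPM levels and fold changes in both comparisons known, and not by a threshold. They were 6 binding protein genes (IGFBP2, IGFBP3, IGFBP4, IGFBP5, IGFBP6 and IGFBP7) and 3 receptor genes (IGF1R, IGF2R and INSR), of 34505 gene rows in the human count tables. Counts were available for 8 of them, and IGFBP4 was not analysed here. IGFBP5 was listed at 0 counts in all 12 libraries, and the 7 other genes passed the filter on low counts in both lines. Because of that choice, the fold changes and adjusted p values below describe these genes and give no independent support to their choice.

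L3.6 is a line of pancreatic adenosquamous carcinoma, and PANC-1 is a line of pancreatic ductal adenocarcinoma. L3.6 cells were either K17 knockout, made with CRISPR-Cas9, or K17 wild type. PANC-1 cells carried either K17 or an empty vector. Each of the 4 groups had 3 libraries, all lines were grown in the same serum-supplemented medium, and the study asked about K17 and resistance to chemotherapy. The labels do not say whether a group was 1 clone or whether replicates were separate cultures, so a difference between groups may also reflect clone or culture, and the p values cover the spread among these libraries and nothing wider.

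IGF1 and IGF2 are secreted hormones that act through IGF1R, a receptor tyrosine kinase closely related to the insulin receptor INSR, with which it also forms hybrids. The secreted binding proteins hold the hormones away from the receptors, extend their life in plasma and are cut by proteases that set them free. IGF2R, also known as the cation-independent mannose 6-phosphate receptor, has no kinase and takes IGF2 to the lysosome for breakdown.

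The promoter windows of IGFBP3 and INSR, the 2 genes of the list that fell in L3.6 knockout cells, are given here from RefSeq on build GRCh38.p14. Each holds 250 bases before and 50 bases after the RefSeq start and is written 5′ to 3′ on the gene's own strand. The gene spans given below come from another annotation with other starts. By those spans the INSR window lies wholly before its gene and the IGFBP3 window wholly inside its gene. The IGFBP3 window is chr7:45921223-45921522 on the minus strand, and the INSR window is chr19:7294365-7294664 on the minus strand. Capitals mark matches to the GC box letters GGGCGG or CCGCCC and to the TATA core letters TATANA or TNTATA, so both strands were searched.
IGFBP3: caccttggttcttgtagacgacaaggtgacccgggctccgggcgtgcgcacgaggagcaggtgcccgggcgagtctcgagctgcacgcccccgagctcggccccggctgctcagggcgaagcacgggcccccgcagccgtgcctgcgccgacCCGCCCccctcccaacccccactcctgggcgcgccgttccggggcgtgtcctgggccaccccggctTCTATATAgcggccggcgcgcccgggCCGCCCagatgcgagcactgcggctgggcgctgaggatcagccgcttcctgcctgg
INSR: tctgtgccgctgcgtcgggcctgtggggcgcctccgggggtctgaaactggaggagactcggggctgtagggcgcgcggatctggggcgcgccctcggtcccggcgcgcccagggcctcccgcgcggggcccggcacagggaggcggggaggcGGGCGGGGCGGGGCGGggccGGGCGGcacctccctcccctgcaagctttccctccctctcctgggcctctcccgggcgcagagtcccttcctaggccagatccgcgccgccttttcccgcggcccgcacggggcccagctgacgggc
The IGFBP3 window had 2 GC box matches and 2 overlapping TATA core matches, and 74.7% of its bases were G or C. The INSR window had 4 GC box matches, some of them overlapping, no TATA core match and 78.3% G or C. The GC box letters were in 45% and the TATA core letters in 19% of 35116 RefSeq promoter windows of the same length, whose median G and C content was 58.7%. These matches are letters in a window and show no bound factor.

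The libraries held 9485257 to 15476629 counts in L3.6 and 59671178 to 70789559 counts in PANC-1. Levels are CPM, the counts scaled to a common library size by trimmed mean of M values (TMM) within each line. KRT17 was at 15.6, 14.6 and 13.5 CPM in knockout libraries, against 105, 120 and 120 CPM in wild type libraries. The knockout libraries therefore still held KRT17 reads. KRT17 has near-identical pseudogene copies, and the part of the gene that was cut is not in the labels. In PANC-1 it had 8597, 9884 and 9228 counts in K17 libraries, against 2, 0 and 0 counts in empty vector libraries. Of the PANC-1 libraries, empty vector replicate 2 was unlike the rest: 18.8% of its counts lay in mitochondrial DNA genes, against 9.88% to 10.8% in the other 5, and on the first principal component it lay at 135, against -31.6 to -22. L3.6 wild type replicate 1 lay at 7.44 on the first component of its line, with knockout libraries on one side of it (-40.6 to -18.6) and wild type replicates 2 and 3 on the other (40.1 and 41.3). Some abundant genes had few counts. TUBB was listed at 0 in all 6 PANC-1 libraries. The counts of EEF2 were 32 to 53 in L3.6 libraries and 10960 to 27520 in those of PANC-1. For CANX they were 67 in empty vector replicate 2 and 16969 to 21772 in the rest of that line. Whether a row holds all the reads of its gene was not tested, and this bears on every level compared between genes or lines below.

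The question of the L3.6 comparison was which transcripts differ when KRT17 is knocked out. Among the 7 genes tested, 1 rose (IGFBP7) and 2 fell (IGFBP3 and INSR) in knockout cells at an adjusted p under 0.05 by edgeR's quasi-likelihood test. In the same comparison 9.61% of 13891 genes passed, 6.1% higher and 3.51% lower. The median log2 fold change was 0.15 over the 7 genes and -0.01 over all genes tested. The libraries are bulk RNA, in which fewer cells expressing a gene and less of its RNA per cell cannot be told apart.

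IGFBP3 encodes the main IGF carrier of plasma, where it joins IGF and the acid-labile subunit in a ternary complex. The gene lies at chromosome 7, 45912245 to 45921874, on the minus strand (GRCh38), next to IGFBP1 with 18576 bases between them. It had 9.18, 9.55 and 8.11 CPM in knockout libraries, against 46.8, 45.7 and 57.2 CPM in wild type libraries. These came from 119, 133 and 105 counts in knockout libraries, against 736, 422 and 678 counts in wild type libraries. Every knockout library was far below every wild type library, and the groups did not overlap. IGFBP3 averaged 8.95 ± 0.745 CPM in knockout cells and 49.9 ± 6.39 CPM in wild type cells (SD, n = 3 each). It was 5.57-fold lower in knockout cells, at -2.48 on the log2 scale (SE 0.128, 95% interval -2.77 to -2.18, edgeR adjusted p = 4.37e-05). By size of the fold change it was rank 45 of the 13891 genes tested. Its neighbour IGFBP1, another IGF carrier, was listed at 0 in all 6 L3.6 libraries.

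INSR, the insulin receptor, lies at chromosome 19, 7112255 to 7294034, on the minus strand. It had 13.7, 11.2 and 14.8 CPM in knockout libraries, against 25.7, 27.8 and 31.7 CPM in wild type libraries. The knockout libraries were all below the wild type libraries without overlap. The means were 13.2 ± 1.83 CPM in knockout cells and 28.4 ± 3.05 CPM in wild type cells (SD, n = 3 each). INSR was 2.15-fold lower in knockout cells, at -1.10 on the log2 scale (SE 0.143, 95% interval -1.43 to -0.78, edgeR adjusted p = 0.00274). In a single fit of the 4 human groups together it had a log2 fold change of -1.08 and an adjusted p of 0.0831.

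IGFBP7 binds IGFs with low affinity and also binds insulin. The gene lies at chromosome 4, 57030773 to 57110385, on the minus strand. It had 116, 131 and 117 CPM in knockout libraries, against 95, 84 and 90.7 CPM in wild type libraries. The groups did not overlap, but the distance between them was small. The log2 fold change was 0.43 (SE 0.0715, 95% interval 0.27 to 0.60, edgeR adjusted p = 0.00796). In the single fit of the 4 groups it was 0.46 with an adjusted p of 0.363.

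The other 4 tested genes did not pass. IGFBP6, a carrier with a preference for IGF2 (chromosome 12, 53097436 to 53102345, plus strand), had 5.63, 5.46 and 5.72 CPM in knockout libraries, against 3.69, 3.90 and 3.21 CPM in wild type libraries. These groups did not overlap either, and the log2 difference was 0.64 (SE 0.206, edgeR adjusted p = 0.0914). IGFBP2, another IGF carrier of plasma (chromosome 2, 216632828 to 216664436, plus strand), had 19.1, 17.2 and 25.0 CPM in knockout libraries, against 17.4, 16.8 and 16.1 CPM in wild type libraries. Its groups overlapped, and the 95% interval of the log2 fold change was -0.07 to 0.64. In all, 4 of the 7 genes had groups without overlap (IGFBP3 and INSR below, IGFBP6 and IGFBP7 above), as had 33.2% of all genes tested.

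IGF1R and IGF2R did not pass the test between knockout and wild type cells. IGF1R (chromosome 15, 98648539 to 98964530, plus strand) had 184, 172 and 201 CPM in knockout libraries, against 180, 161 and 162 CPM in wild type libraries. The groups overlapped, and the 95% interval of its log2 fold change was -0.02 to 0.32. IGF2R (chromosome 6, 159969099 to 160113507, plus strand) had 48.6, 41.1 and 42.4 CPM in knockout libraries, against 41.4, 52.0 and 54.5 CPM in wild type libraries. Again the groups overlapped, with a 95% interval of -0.43 to 0.11.

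IGFBP5 (chromosome 2, 216672105 to 216695525, minus strand) lies 7668 bases from IGFBP2 and faces it. Its row held 0 counts in each library, which allows up to 3 counts, that is 0.191 to 0.325 CPM in L3.6 and 0.0426 to 0.0502 CPM in PANC-1, for counting error only.

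**Figure D1:**
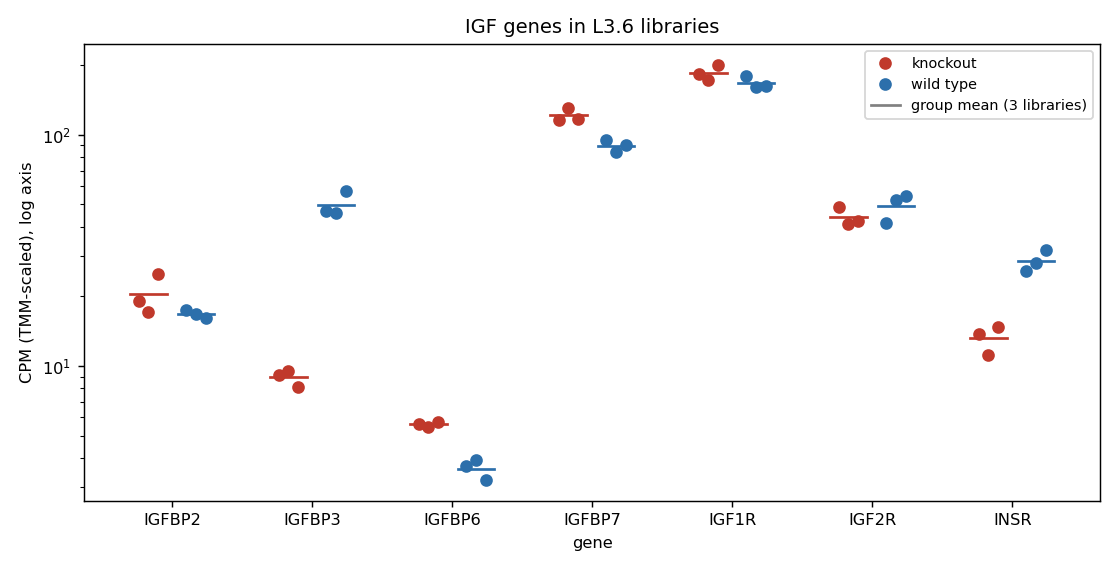
CPM (log axis) of the 7 genes with counts in each L3.6 library, knockout in red and wild type in blue, with a line at each group mean of 3 libraries. IGFBP3 and INSR lay lower in knockout libraries and IGFBP6 and IGFBP7 higher, without overlap, while the groups of IGFBP2, IGF1R and IGF2R overlapped.

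The PANC-1 comparison asked the reverse question, which transcripts differ when K17 is expressed in cells that have almost none. With all 6 libraries, edgeR's quasi-likelihood test called 0 of the 7 genes. In that comparison 0.644% of 16295 genes passed (0.583% higher and 0.0614% lower), and 2 of the 7 genes, IGFBP6 and IGFBP7, had an unadjusted p under 0.05, as had 10% of all genes tested. DESeq2 called 595 genes in all where edgeR called 105. Without empty vector replicate 2, edgeR called 2 of the 7 genes higher (IGFBP6 and INSR) and 2 lower (IGFBP7 and IGF1R) in K17 cells, and 20.7% of 16640 genes passed (11.4% higher and 9.25% lower).

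IGFBP7 had 3.47, 4.07 and 4.44 CPM in K17 libraries, against 6.26, 10.6 and 6.07 CPM in empty vector libraries. All K17 libraries were below all empty vector libraries, and replicate 2 was the highest of the empty vector group. The log2 fold change was -0.93 (SE 0.27, 95% interval -1.59 to -0.27, edgeR adjusted p = 0.289). Without replicate 2 it was -0.63 (SE 0.137, adjusted p = 0.0185). IGFBP7 therefore lay lower in K17 cells of PANC-1 and higher in knockout cells of L3.6, which is lower with K17 in each line.

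IGFBP6 had 1.67, 1.91 and 1.31 CPM in K17 libraries, against 0.625, 1.14 and 0.831 CPM in empty vector libraries. The K17 libraries were higher without overlap. The log2 fold change was 0.91 (SE 0.288, 95% interval 0.20 to 1.61, edgeR adjusted p = 0.351), and without replicate 2 it was 1.16 (SE 0.249, adjusted p = 0.0178). With IGFBP7 this made 2 of 7 genes with groups that did not overlap, as had 25.6% of all genes tested. Without replicate 2 there were 4 of 7, as had 48.3% of genes.

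INSR was low in PANC-1, at 1.77, 1.56 and 1.91 CPM in K17 libraries, against 0.838, 1.76 and 1.11 CPM in empty vector libraries. Replicate 2 lay among the K17 libraries and the other 2 empty vector libraries below them. The log2 fold change was 0.49 (SE 0.304, 95% interval -0.25 to 1.24, edgeR adjusted p = 0.643), and without replicate 2 it was 0.84 (SE 0.209, adjusted p = 0.0315).

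IGF1R had 218, 203 and 207 CPM in K17 libraries, against 231, 114 and 238 CPM in empty vector libraries. Replicate 2 held 0.486 times the mean of the other 2 empty vector libraries. The sign of the difference turned with that library. The log2 fold change was 0.11 with it (SE 0.293, edgeR adjusted p = 0.905) and -0.17 without it (SE 0.035, adjusted p = 0.0158).

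The other 3 genes were called neither with nor without replicate 2. IGF2R had 153, 149 and 153 CPM in K17 libraries, against 145, 124 and 156 CPM in empty vector libraries. Without replicate 2 its log2 fold change was 0.01, with a 95% interval of -0.08 to 0.09. IGFBP3 had 1.44, 1.09 and 1.15 CPM in K17 libraries, against 0.809, 1.12 and 1.13 CPM in empty vector libraries, and the groups overlapped. Its log2 fold change was 0.27 (95% interval -0.28 to 0.82) with all libraries and 0.34 (-0.23 to 0.91) without replicate 2. IGFBP2 had 1.41, 1.15 and 1.03 CPM in K17 libraries, against 1.33, 1.67 and 1.60 CPM in empty vector libraries, and its 95% interval was -0.85 to 0.14.

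**Figure D2:**
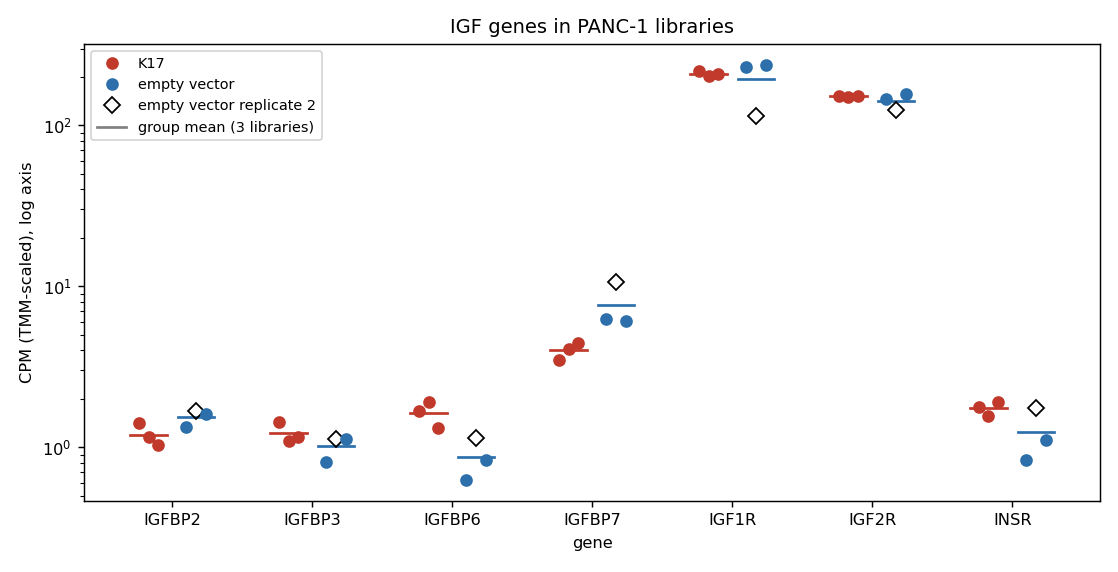
CPM (log axis) of the 7 genes with counts in each PANC-1 library, K17 in red and empty vector in blue, with empty vector replicate 2 as an open diamond and a line at each group mean of 3 libraries. Replicate 2 lies below the other empty vector libraries for IGF1R (114 CPM, against 231 and 238) and above them for IGFBP7, IGFBP6 and INSR.

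**Figure D3:**
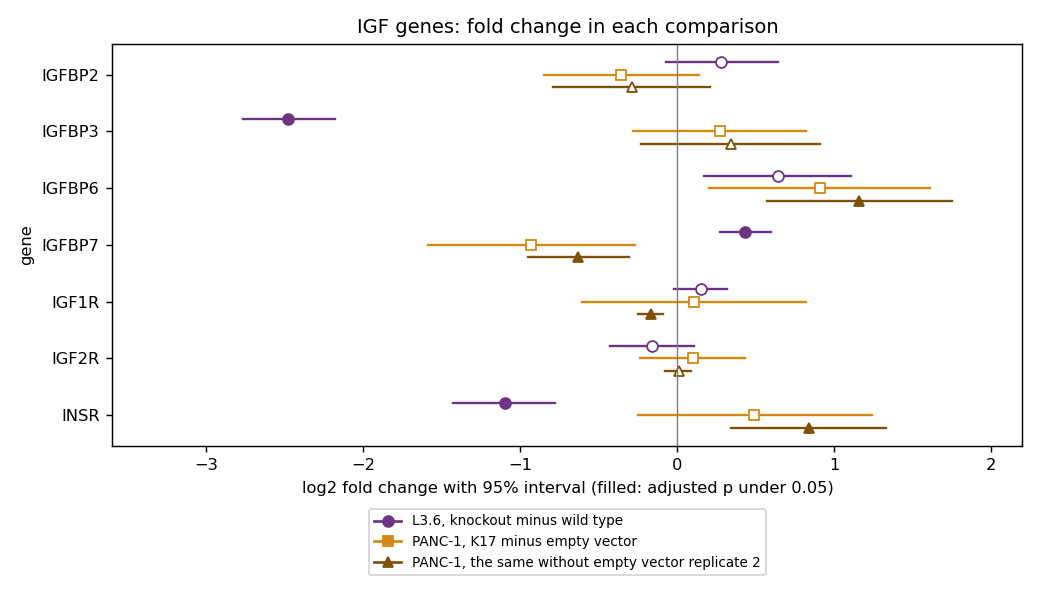
Log2 fold changes (points) with 95% intervals (lines) of the 7 genes: L3.6 knockout minus wild type, PANC-1 K17 minus empty vector, and the same without empty vector replicate 2. Filled points have an adjusted p under 0.05. IGFBP3 in L3.6, at -2.48, lies farthest from 0, and its PANC-1 intervals include 0.

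The effect of having K17 was set side by side in the lines as an interaction over the 12 libraries, taking PANC-1 K17 minus empty vector and subtracting L3.6 wild type minus knockout. IGFBP3 was the one gene of the 7 that passed, where 1.54% of 17583 genes passed (1.25% higher and 0.284% lower). Its effect was smaller in PANC-1 by 2.25 log2 units (-2.25, SE 0.272, 95% interval -2.85 to -1.65, edgeR adjusted p = 0.00183). Without empty vector replicate 2 the value was -2.06 (adjusted p = 0.000267). IGFBP6 had an interaction of 1.5 (SE 0.373, adjusted p = 0.0878), and without replicate 2 it was 1.87 with an adjusted p of 0.00284, where 11.5% of genes passed (8.72% higher and 2.82% lower). It lay lower with K17 in L3.6 and higher with K17 in PANC-1. For INSR the interaction was -0.66, with a 95% interval of -1.49 to 0.17, and for IGFBP7 it was -0.55, with a 95% interval of -1.25 to 0.14. The comparison of lines rests on different starting levels, since the mean of IGFBP3 was 49.9 CPM in L3.6 wild type cells and 1.02 ± 0.181 CPM in PANC-1 empty vector cells (SD, n = 3). This comparison also sets a knockout in L3.6 against K17 expression in PANC-1, so line and kind of change cannot be told apart.

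Between genes, levels were compared as CPM per kilobase of annotated exon sequence. In L3.6 knockout cells the order was IGFBP7 at 62.9, IGF1R at 13.3, IGFBP2 at 4.29, IGFBP6 at 4.16, IGF2R at 2.47, IGFBP3 at 1.96 and INSR at 1.27 CPM per kb. In L3.6 wild type cells it was IGFBP7 at 46.6, IGF1R at 12.0, IGFBP3 at 10.9, IGFBP2 at 3.52, IGF2R at 2.76, INSR at 2.72 and IGFBP6 at 2.67 CPM per kb. IGFBP3 stood just above INSR, the lowest gene, in knockout cells and just below IGF1R in wild type cells. Neighbours within their spread were IGFBP2 and IGFBP6 in knockout cells, and IGF1R and IGFBP3 as well as IGF2R, INSR and IGFBP6 in wild type cells.

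In PANC-1, IGF1R and IGF2R had the highest levels per kb. In K17 cells IGF1R was at 15.0, IGF2R at 8.49, IGFBP7 at 2.07, IGFBP6 at 1.21, IGFBP3 at 0.268, IGFBP2 at 0.252 and INSR at 0.167 CPM per kb. In empty vector cells IGF1R was at 14.0, IGF2R at 7.94, IGFBP7 at 3.95, IGFBP6 at 0.644, IGFBP2 at 0.322, IGFBP3 at 0.223 and INSR at 0.118 CPM per kb. IGFBP3 and IGFBP2 were within their spread in K17 cells. The levels of the lines were scaled separately and were not tested against each other.

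Of the ligand genes, IGF2 was in PANC-1 at 13.1, 11.8 and 13.6 CPM in K17 libraries, against 11.1, 13.6 and 9.64 CPM in empty vector libraries. IGF1 had 3.55, 2.51 and 2.01 CPM in L3.6 knockout libraries, against 2.42, 6.71 and 8.70 CPM in wild type libraries. The groups of both genes overlapped and neither gene passed. Insulin (INS) was listed at 0 in all 12 libraries.

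IGFBP proteases and their inhibitors formed the pathway list with the most calls in L3.6. The pathway lists, like the members, were chosen with earlier results of these data known. Counts and medians over them, here and below, describe the lists and give no independent support to their choice. Over all pathway lists 11 of 45 tested genes rose in knockout cells and 0 fell, beside 6.1% higher and 3.51% lower over all genes. Of 9 tested proteases and inhibitors, 4 rose and 0 fell, with a median log2 fold change of 0.37, against -0.01 over all genes tested. ADAM12, a metalloprotease that cuts IGFBP3, had 34.3, 37.9 and 39.9 CPM in knockout libraries, against 17.5, 18.8 and 16.3 CPM in wild type libraries. Its log2 fold change was 1.09 (SE 0.106, edgeR adjusted p = 0.00073). ADAM28, another protease that cuts IGFBP3, rose by 0.58 (adjusted p = 0.0362). The other 2 were the stanniocalcins, secreted inhibitors of the IGFBP protease PAPPA. STC1 had 23.5, 22.9 and 37.6 CPM in knockout libraries, against 12.3, 10.3 and 10.9 CPM in wild type libraries. Its log2 fold change was 1.32 (adjusted p = 0.00665), and that of STC2 was 0.37 (adjusted p = 0.0204). PAPPA itself was listed at 0 in all 6 L3.6 libraries. The members that rose thus included proteases and inhibitors alike.

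Receptor processing and the signalling adaptors also held calls in L3.6, all of them higher in knockout cells. Over all genes tested, 6.1% were called higher and 3.51% lower. Of 6 IGFBP3 partners and processing enzymes, 3 rose and 0 fell. FURIN, a convertase that cleaves the precursors of IGF1R and INSR, had 127, 130 and 127 CPM in knockout libraries, against 69.1, 65.6 and 66.8 CPM in wild type libraries. Its log2 fold change was 0.93 (SE 0.0515, edgeR adjusted p = 5.82e-05). PCSK6, a related convertase, rose by 0.48 (adjusted p = 0.0228), and TMEM219, a cell surface receptor of IGFBP3, by 0.84 (adjusted p = 0.0302). Of 15 receptor substrates and adaptors tested, 3 rose and 0 fell: SOCS2 by 0.81 (adjusted p = 0.0115), GRB10 by 0.48 (adjusted p = 0.017) and SHC1 by 0.28 (adjusted p = 0.0211). GRB10 binds IGF1R and INSR and dampens their signal, SOCS2 is a feedback inhibitor of cytokine and growth hormone signals, and SHC1 links receptors to RAS. IGF2BP2, which binds IGF2 mRNA, was the 1 of 3 in its list that passed, with a log2 fold change of 0.21 (adjusted p = 0.0337). Of these 11 calls, those of ADAM12, FURIN and STC1 held with any 1 library left out. In the single fit of the 4 groups 8 of the 11 were lost, STC1 among them (adjusted p = 0.0633), and the highest adjusted p was 0.279. With a library left out, 3 calls were lost without knockout replicate 1, 7 without knockout replicate 2, 8 without knockout replicate 3, 6 without wild type replicate 2 and 4 without wild type replicate 3, at edgeR adjusted p values of 0.0558 to 0.181.

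The remaining lists held no call in L3.6. Of 4 tested proteins with an IGFBP domain and 7 genes of mannose 6-phosphate sorting, in which IGF2R acts, 0 passed. Their genes of highest CPM in L3.6 were HTRA1, a secreted protease with an IGFBP domain, and GGA2, a sorting adaptor. HTRA1 had 23.8, 19.5 and 18.5 CPM in knockout libraries, against 26.6, 20.8 and 26.7 CPM in wild type libraries. GGA2 had 174, 187 and 173 CPM in knockout libraries, against 168, 153 and 161 CPM in wild type libraries.

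In PANC-1 the same lists held 1 call among 48 tested genes, where 0.644% of all genes passed (0.583% higher and 0.0614% lower). The gene called was GRB10. It had 37.6, 37.1 and 33.5 CPM in K17 libraries, against 15.4, 12.0 and 14.5 CPM in empty vector libraries, without overlap. The log2 fold change was 1.37 (SE 0.148, edgeR adjusted p = 0.0299), and 1.27 without empty vector replicate 2 (adjusted p = 7.76e-05). The call was lost, at adjusted p values of 0.153 to 0.273, when empty vector replicate 1 or 3 or any of the 3 K17 libraries was left out. GRB10 thus lay higher in L3.6 knockout cells and higher in PANC-1 K17 cells. The interaction was 1.82 (SE 0.177, adjusted p = 0.000411).

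Without empty vector replicate 2, 10 of the 48 tested pathway genes rose in PANC-1 K17 cells and 7 fell, where 20.7% of all genes passed (11.4% higher and 9.25% lower). Besides GRB10, the genes that rose were STC2, CTSD, KAZALD1, SH2B3, SOCS3, M6PR, FURIN, PCSK5 and PCSK6. Those that fell were HTRA1, CCN4, SHC1, GRB2, SOS1, GGA2 and PCSK7. STC2 rose in K17 cells by 0.64 (edgeR adjusted p = 0.000387), at 146, 145 and 132 CPM in K17 libraries, against 92.7, 104 and 87.7 CPM in empty vector libraries. PCSK6 rose by 0.73 (adjusted p = 0.0029). HTRA1 fell, with a log2 fold change of -1.35 (adjusted p = 0.0113), at 2.25, 1.47 and 1.37 CPM in K17 libraries, against 3.59, 12.1 and 5.10 CPM in empty vector libraries. Replicate 2 was the highest of these, at 12.1 CPM. It also held 0.0952 times the mean ADAM9 level of the other 2 empty vector libraries and 4.8 times their M6PR level, so the values of that library for the pathway went both ways.

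**Figure D4:**
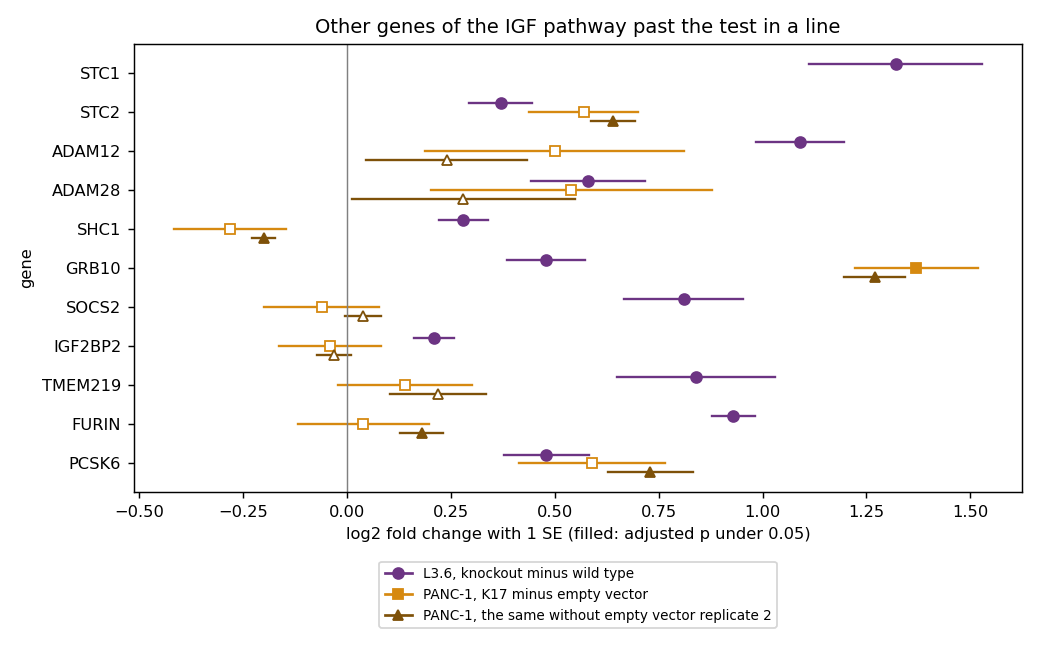
Log2 fold changes (points) with 1 SE (lines) of the 11 other pathway genes that passed in a line: L3.6 knockout minus wild type, PANC-1 K17 minus empty vector, and the same without empty vector replicate 2. Filled points have an adjusted p under 0.05. All 11 were higher in L3.6 knockout cells, and STC1, listed at 0 in PANC-1, has no PANC-1 point.

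Likeness of pattern was measured as the root mean square (RMS) difference of log2 CPM, centred within each line, over the 12 libraries and 12234 genes. The 3 protein-coding genes most like IGFBP3 were TNFAIP2 at an RMS difference of 0.217, IGSF9B at 0.253 and ADGRF1 at 0.276. The median over all genes was 0.945. In L3.6 their log2 fold changes were -2.80, -2.57 and -2.43, and in PANC-1 they were 0.50, 0.37 and -0.31. Here and for IGFBP7 below, the genes were picked by likeness over these same libraries. Fold changes near those of the listed gene therefore follow from the choice. IGFBP7 had the largest fold change of the list in PANC-1 with all libraries, at -0.93 beside 0.91 for IGFBP6. Without empty vector replicate 2 it stood behind IGFBP6 (1.16) and INSR (0.84), at -0.63. Its pattern was most like SERPINH1 at 0.0934, RPL10A at 0.11 and CEL at 0.115, against a median of 0.528. In PANC-1 these 3 had log2 fold changes of -0.80, -0.77 and -0.77, none past the threshold. Empty vector replicate 2 was the highest PANC-1 library for IGFBP7, at 10.6 CPM, and the likeness was not measured without it. RPL10A and CEL have near-identical copies elsewhere in the genome and are uncertain for that reason.

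Markers checked the labelled cell types and their move with the groups. The summed level of 6 simple epithelium markers was 3680 to 4010 CPM in L3.6 knockout libraries, against 3140 to 3520 CPM in wild type libraries. Most of this sum was KRT19 (means of 2010 CPM in knockout and 1640 CPM in wild type cells) and KRT8 (1310 and 1190 CPM). KRT18 averaged 18 and 15.8 CPM in these cells, and CDH1 1.63 and 1.52 CPM. Whether their rows held all the reads of these genes was not tested. Of the 6 markers 1 passed, KRT19, with a log2 fold change of 0.3 (edgeR adjusted p = 0.0212). EPCAM was at 0.07, and CLDN4 went the other way, at -0.19. Of the 4 squamous markers with counts available, TP63 and KRT5 were above 1 CPM in L3.6, KRT6A was listed at 0 and KRT14 was below 0.3 CPM. Their sum was 394 to 413 CPM in knockout libraries, against 278 to 300 CPM in wild type libraries, and TP63 rose by 0.48 (edgeR adjusted p = 0.000945). The 5 endothelial markers summed to 3.55 to 4.02 CPM in knockout libraries, against 8.76 to 12.8 CPM in wild type libraries. This sum was nearly all PECAM1, while CDH5, VWF, KDR and ERG were each below 0.7 CPM in L3.6. These sums differed between the groups as IGFBP3, INSR and IGFBP7 did, and their part in those results was not tested. In PANC-1 the sum for simple epithelium was 1020 to 1080 CPM in K17 libraries, against 939 to 1760 CPM in empty vector libraries, with replicate 2 the highest. CDH1 averaged 0.846 CPM in K17 cells and 0.33 CPM in empty vector cells. Of 4 tested fibroblast markers 1 fell in K17 cells, COL3A1, with a log2 fold change of -2.84 (edgeR adjusted p = 0.0152). The other 3 did not pass and had positive values, DCN 0.12, COL1A2 0.56 and PDGFRB 1.24, and the median of the list was 0.34. Acinar and islet markers summed to at most 1.08 CPM in any library. Fibroblast markers summed to 39.7 to 44.8 CPM in L3.6 knockout and 36.6 to 44 CPM in wild type libraries. Most of this was COL3A1, with means of 37.8 and 34.3 CPM. Immune markers summed to 1.7 to 6.17 CPM and 3.97 to 4.7 CPM there. In PANC-1 the immune sum was 35.3 to 42.5 CPM in K17 and 35.6 to 51.2 CPM in empty vector libraries. It was nearly all CD68, with means of 36.2 and 39.6 CPM.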

How the data were processed

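Per the labels' protocols, TRIzol was used to extract total RNA from cultured cells, and a TruSeq RNA kit to prepare libraries. The authors deposited whole-number counts per gene for each library, with no normalization. Build GRCh38, kallisto 0.46.2, STAR 2.7.3a and bcl2fastq 1.8.4 appear in the submitters' processing notes. Not given in the sources used here are the counting tool, its strand setting and its handling of reads shared by genes, so overlapping, antisense and duplicated genes are uncertain. GENCODE 29 named 34474 of the 34505 human identifiers (33619 with the same version) and gave coordinates, and RefSeq gave promoters. The mouse libraries of the series were not used here.

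A separate edgeR 4.0.16 fit was made for each line in R 4.3.3 (filterByExpr, TMM, robust glmQLFit, glmQLFTest). All kept genes entered the Benjamini-Hochberg adjustment, with calls at 0.05. CPM used TMM-scaled library sizes, with a prior count of 2 on the log scale. The difference between lines was an interaction over 12 libraries in 1 fit. No 2 libraries of a group agreed within sampling noise (chi-square per degree of freedom 5.1 to 740). Floors are 3 counts and cover counting error only.

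All listed genes were named, as were all genes of each pathway list past the threshold in a line, or else the most abundant one, and the 3 nearest patterns. The genes and lists were chosen with earlier results of these data known. The alternatives tried were other size factors (RLE, upper-quartile), no filter or 1 CPM in 3 libraries, DESeq2 1.42.0, 1 fit of 4 groups, a replicate block and leaving out each library.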

Additional observations from a re-analysis of the deposited data

Results flagged for a closer look

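For 4 genes the difference with and without K17 was unlike between the lines by the interaction over the 12 libraries. The interaction sets a knockout in L3.6 against K17 expression in PANC-1, so line, kind of change and clone cannot be told apart. They were 1 of the 7 listed genes tested and 3 of 51 tested pathway genes. Of all 17583 genes tested, 1.54% passed (1.25% higher and 0.284% lower). For IGFBP3 the difference (PANC-1 K17 minus empty vector, less L3.6 wild type minus knockout) was -2.25 on the log2 scale (edgeR adjusted p = 0.00183). IGFBP3 was lower in each L3.6 knockout library than in each wild type library, and its groups overlapped in PANC-1.

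For STC2 the difference was 0.90 (SE 0.178, edgeR adjusted p = 0.0323). STC2 had 146, 145 and 132 CPM in PANC-1 K17 libraries, against 92.7, 104 and 87.7 CPM in empty vector libraries, and 131, 146 and 150 CPM in L3.6 knockout libraries, against 102, 110 and 119 CPM in wild type libraries. For ADAM12 it was 1.57 (SE 0.31, edgeR adjusted p = 0.0311), at 1.56, 1.51 and 1.95 CPM in PANC-1 K17 libraries, against 1.33, 0.719 and 1.49 CPM in empty vector libraries. For GRB10 it was 1.82 (SE 0.177, edgeR adjusted p = 0.000411). STC2, ADAM12 and GRB10 had higher levels in each L3.6 knockout library than in each wild type library. They were also higher in each PANC-1 K17 library than in each empty vector library. Of all genes tested, 33.2% in L3.6 and 25.6% in PANC-1 had groups without overlap. With all PANC-1 libraries, STC2 (0.57, edgeR adjusted p = 0.175) and ADAM12 (0.5, adjusted p = 0.646) were not called in that line.

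Left-out libraries and other settings kept the sign of these 4 differences. Over 17 alternatives the adjusted p of GRB10 reached at most 0.0221, that of STC2 rose above the threshold in 5 (the replicate block, and L3.6 knockout or wild type replicate 2 or 3 left out) and that of ADAM12 in 11 (upper-quartile factors, the block, and any L3.6 or PANC-1 K17 library left out).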

How the results depend on the processing

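Some genes were low: in PANC-1, IGFBP2, IGFBP3, IGFBP6 and INSR lay below 2 CPM in each library, at 44 to 120 counts. Correlations of same-numbered deviations were -0.12, -0.04 and 0.02 in L3.6 and 0.05, 0.09 and 0.02 in PANC-1. Those of differently numbered libraries were -0.09 to 0.12 in L3.6 and -0.08 to 0.05 in PANC-1. With 3 libraries per group these values cannot decide whether the replicate numbers pair the samples. With the replicate block the calls over all genes were 665 in L3.6 (1335 without it), 0 in PANC-1 (105 without it, 1262 at an unadjusted p under 0.05 with the block) and 70 in the interaction (270 without it). DESeq2 called 595 genes in PANC-1, and 1 fit of the 4 groups called 204 in L3.6 and 363 in PANC-1. Leaving out 1 library gave 574 to 2495 calls in L3.6 (2495 without wild type replicate 1), 0 to 3442 in PANC-1 (3442 without empty vector replicate 2) and 138 to 1819 in the interaction (1819 without that library). In PANC-1, 0 genes were called without empty vector replicate 3 or any K17 library, with 979 to 1713 at an unadjusted p under 0.05, and 1 without empty vector replicate 1. The split of calls in L3.6 was 847 higher and 488 lower, 706 and 639 with upper-quartile factors; in PANC-1 it was 95 higher and 10 lower, 448 and 147 with DESeq2, 286 and 77 in 1 fit and 1902 and 1540 without empty vector replicate 2.

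IGFBP3 in L3.6 kept its call under 13 alternatives, at log2 fold changes of -2.54 to -2.37 and adjusted p values up to 0.000618, and its interaction was -2.24 with an adjusted p of 0.0602 under the block. Of the 11 pathway calls in L3.6, 4 were lost with the block (adjusted p up to 0.136) and 8 in 1 fit of the 4 groups. IGFBP7 in PANC-1 passed in 1 fit of the 4 groups (-1.01, adjusted p = 0.0476), and IGFBP6 passed in the interaction with the CPM filter (1.58, adjusted p = 0.0393). Reversed were IGF1R in PANC-1 without empty vector replicate 2 (-0.17, with -0.17 to 0.27 over the left-out libraries), and the interactions of IGFBP2 (0.02 without a filter, -0.27 to 0.10 with a library left out) and IGF2R (0.03, and -0.08 to 0.06), none of these interactions past the threshold. For each such change the cause was not tested.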
